A study of Mus musculus with 4 samples.

Results

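The Gnas imprinted locus was taken as the stretch chr2:174090000-174180000 of the mouse genome (mm9), which holds the overlapping transcripts Nesp, Nespas, Gnasxl, exon 1A and Gnas. Its members are the CG sites with 5 or more reads in every library, 839 of the 1717 CG sites that the tables list there and of 2638319 such sites on chromosomes 1 to 19, X and Y. The positions chr2:174119800-174126500 (the Nespas-Gnasxl control region, 294 of 346 listed sites) and chr2:174153200-174154300 (the exon 1A region, 85 of 85) set apart both control regions, and 460 of 1286 sites formed the rest of the locus. The rule that chose them uses no measured level, but it was set with earlier results of these data known.

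Targeted bisulfite sequencing was done on spermatozoa of C57BL/6 mice, with 2 libraries from swim-up sperm and 2 from HRCS. Swim-up sperm are motile sperm collected from the upper part of the medium in which the tissue was incubated, a fraction that can still hold sperm whose histones were not all replaced. HRCS are histone replacement-completed sperm, for which heads separated by mild sonication from sperm of the caudal epididymis and vas deferens were pelleted through 82% Percoll. No allele or drug sets the fractions apart, and how many animals were pooled for a library is not given in the sources used here. The labels do not say that replicates came from separate animals, so each p-value measures only the spread between these libraries. The comparison of fractions asks whether the methylation of the locus differs between swim-up sperm and sperm selected for a finished exchange of histones for protamines. The paper found an unfinished exchange in only a small part of swim-up sperm, so most cells of both fractions had finished it. The fractions also differ in selection by motility, sonication and Percoll selection, and possibly in the tissue of origin, and these differences cannot be told apart here. The paper combined 2 libraries on a sequencing lane, and which ones shared a lane is not given in the sources used here.

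Gnas encodes the stimulatory G protein alpha subunit that couples hormone receptors to cyclic AMP production. Its locus uses several promoters that share the downstream exons, and the choice depends on the parent of origin. Nesp encodes a neuroendocrine secretory protein from the maternal allele, and Gnasxl encodes the extra-large alpha subunit from the paternal allele. Nespas is a non-coding antisense transcript of the paternal allele that runs through Nesp. Exon 1A starts a further paternal transcript just upstream of Gnas exon 1. The Nespas-Gnasxl and exon 1A control regions gain methylation in oocytes and not in sperm, whereas Nesp is methylated on the paternal allele in somatic tissue, a mark that is gained after fertilization. Each sperm carries 1 copy of the locus, which was inherited from either parent of the male and reset in his germ line.

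The sequences below show the starts of Nespas, exon 1A and Nesp, where low levels were measured, and the Nespas exon in which middle levels were measured. Capitals mark CG dinucleotides, all runs read 5′ to 3′, and a search for their CG spacing among all listed CG sites gave a single match each in mm9. The first is the start of Nespas (the first 300 of the 367 bases of exon 1, minus strand, mm9 chr2:174120638-174120937), which lies inside the Nespas-Gnasxl region and has 15 CG. The second is Nespas exon 4 (151 bases, minus strand, mm9 chr2:174108757-174108907, 8 CG). Both were read from the transcript of the GRCm38 annotation. The others are the 250 bases before the start of exon 1A (RefSeq, GRCm38.p6, plus strand, chr2:174327518-174327767, 22 CG) and before the start of Nesp (RefSeq, GRCm38.p6, plus strand, chr2:174284070-174284319, 14 CG). For Nespas and Gnasxl no promoter was read from the table.
Nespas exon 1 start: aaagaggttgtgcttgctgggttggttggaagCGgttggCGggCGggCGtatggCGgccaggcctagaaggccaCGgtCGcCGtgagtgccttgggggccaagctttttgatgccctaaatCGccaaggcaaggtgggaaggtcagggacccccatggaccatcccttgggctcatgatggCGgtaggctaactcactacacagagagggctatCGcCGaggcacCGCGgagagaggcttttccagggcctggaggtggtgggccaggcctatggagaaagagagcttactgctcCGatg
Nespas exon 4: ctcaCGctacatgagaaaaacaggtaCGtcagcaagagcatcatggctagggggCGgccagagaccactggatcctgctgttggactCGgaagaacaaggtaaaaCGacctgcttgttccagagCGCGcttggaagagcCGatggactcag
Exon 1A promoter: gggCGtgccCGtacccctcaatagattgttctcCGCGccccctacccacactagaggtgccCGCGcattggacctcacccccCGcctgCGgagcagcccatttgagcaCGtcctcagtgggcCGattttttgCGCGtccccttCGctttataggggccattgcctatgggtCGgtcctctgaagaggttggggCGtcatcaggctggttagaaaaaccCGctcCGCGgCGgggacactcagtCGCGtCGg
Nesp promoter: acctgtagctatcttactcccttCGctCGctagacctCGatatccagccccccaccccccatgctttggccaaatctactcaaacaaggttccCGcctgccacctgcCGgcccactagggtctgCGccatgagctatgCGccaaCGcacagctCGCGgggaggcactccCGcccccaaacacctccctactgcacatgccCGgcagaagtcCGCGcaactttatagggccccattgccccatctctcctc

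The methylation level of a CG site is the share of its reads that were called methylated, with both strands added, and the level of a region is the plain mean over its sites. Columns of the tables are unnamed, and of both counts the one that is never the larger was read as methylated reads. If it held unmethylated reads instead, each level would be 100% minus the value given. A site of the locus had a median of 25 and 24 reads in swim-up replicates 1 and 2, while HRCS replicates 1 and 2 had 28 and 26. A read that covers several CG sites counts at each of them, and such a count is termed a call. The locus held 22683 to 27054 calls per library. The libraries held 71379227 to 89403347 calls in all, and at the locus 96.3% to 97.0% of the calls came from minus-strand rows.

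Both control regions were nearly free of methylation in all 4 libraries. The Nespas-Gnasxl region, from which Nespas and Gnasxl start in opposite directions, had a level of 1.51% and 1.41% in swim-up sperm, and HRCS had 1.32% and 1.10%. The exon 1A region had 0.943% and 1.14% in swim-up sperm, while HRCS had 1.39% and 0.986%. With all calls of a region in a library pooled, the Wilson 95% intervals ran from 0.934% to 1.68% for the Nespas-Gnasxl region and from 0.701% to 1.94% for the exon 1A region, over the 4 libraries. These intervals cover counting error only, since PCR copies and calls of 1 read at several sites are not independent.

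The low level was shared by the single sites of both regions. In the Nespas-Gnasxl region 288 of 294 sites had a mean over the 4 libraries of at most 5%, and at 87 sites no library had a methylated read. In the exon 1A region this held for 83 and 40 of 85 sites. The 3 highest sites of the Nespas-Gnasxl region had means of 9.13% (position 174124270), 8.88% (174120207) and 8.06% (174124840). Those of the exon 1A region had 6.25% (174153266), 5.26% (174154236) and 4.05% (174153898). At 174153266 and 174154236 all methylated reads came from swim-up replicate 2, with 5 of 20 and 4 of 19 reads. Neither control region held a run of windows above 75%.

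**Figure D1:**
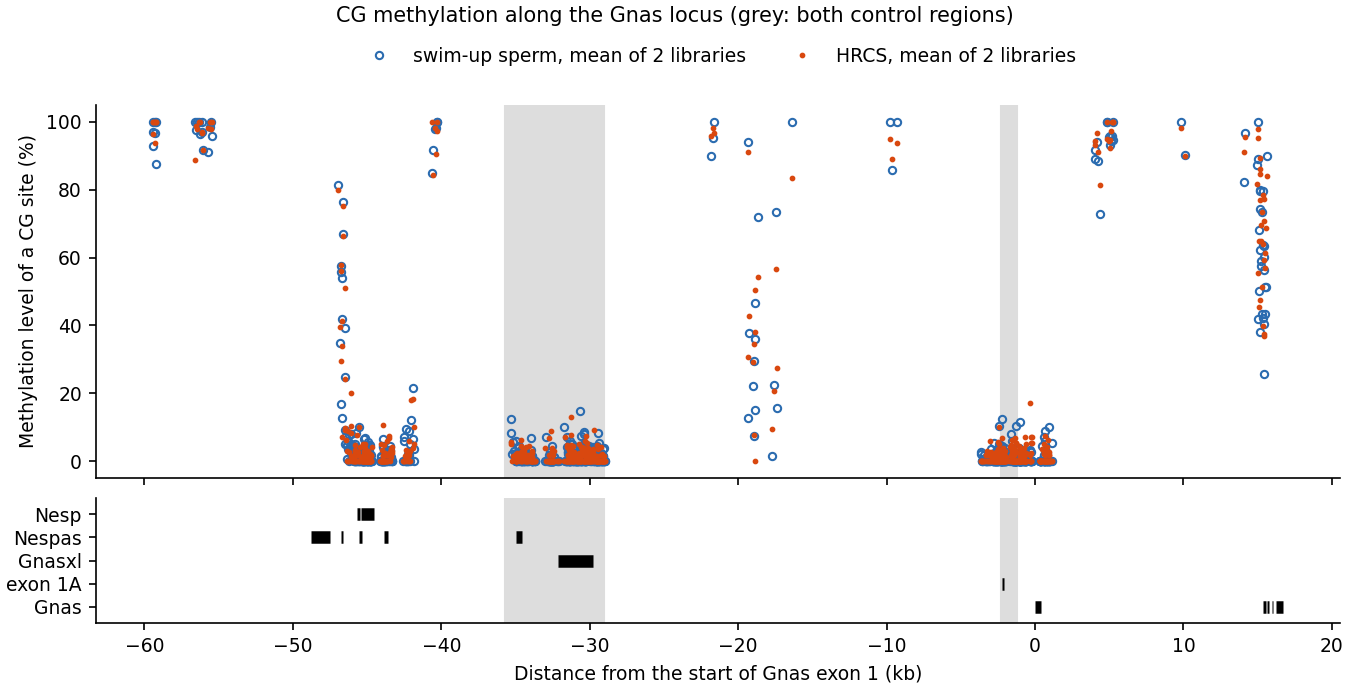
Methylation level of each of the 839 CG sites (vertical axis, %) against the distance from the start of Gnas exon 1 (horizontal axis, kb), as the mean of 2 swim-up libraries (open circles) and of 2 HRCS libraries (dots), with exons of the transcripts as black boxes below. Sites of both control regions (grey) lie near 0, as do those around Nesp and Gnas exon 1. Highly methylated sites lie between some of these stretches and outside them.

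The exons were placed on mm9 by the spacing of their CG dinucleotides, and exons with fewer than 3 CG or more than 1 match were not placed. Nespas exon 1 (chr2:174120571-174120937) had a level of 0.978%, 1.74%, 2.18% and 1.30% over 16 sites, in the order swim-up replicates 1 and 2 and HRCS replicates 1 and 2. Among the 15 CG of the printed start of Nespas, the means over the libraries ran from 0% to 4.84%, the latter at the C of base 55. The predicted gene Gm27849 overlaps Nespas exon 1 at chr2:174120838-174120962 and had 0.881%, 1.01%, 2.16% and 1.21% over 12 sites. Both HRCS libraries lay above both swim-up libraries at Gm27849, by 0.740 percentage points between the means. That difference came mostly from HRCS replicate 1. The first exon of Gnasxl (chr2:174123360-174125718) carried 137 of the 294 sites of the region and had 1.67% and 1.91% in swim-up sperm, while HRCS had 1.41% and 1.38%. Both HRCS libraries lay below both swim-up libraries there, with a difference of -0.396 percentage points between the means.

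Exon 1A (chr2:174153269-174153442, 17 sites) had the same order as Gm27849. Its level was 0.431% and 0.812% in swim-up sperm, while HRCS had 1.51% and 1.12%. The libraries of the fractions did not overlap, with a difference of 0.692 percentage points. These values rest on 2 methylated calls of 511 and 5 of 587 in swim-up sperm, while HRCS had 7 of 462 and 5 of 477. The 95% Wilson intervals of the pooled calls overlapped. They reached up to 1.42% and 1.98% in swim-up sperm and down to 0.736% and 0.449% in HRCS. The printed 250 bases before exon 1A had 1.06%, 2.99%, 1.52% and 1.53% over 22 sites, where swim-up replicate 2 was the highest library and replicate 1 the lowest. For Gm27849, the first exon of Gnasxl and exon 1A alike the test gave p = 0.33 (two-sided exact permutation test), and with 2 libraries against 2 that is the smallest p possible. Such an order would arise in some of the many stretches compared here even without an effect.

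Low methylation reached past the positions of the control regions. Neighbouring windows of 200 bp with at least 1 member site and a level of at most 25% in every library formed 3 runs, with windows that hold no member site passed over. The run around the Nespas-Gnasxl region (chr2:174120001-174126600, 296 sites) had a mean level of 1.33%, and almost coincided with the region. Beyond its ends lay 4600 bp to the left and 7000 bp to the right without a member site, so where its low methylation ends was not measured. The run around exon 1A (chr2:174151801-174156800, 271 sites) had 1.10% and 0.889% in swim-up sperm, while HRCS had 1.22% and 1.16%. It was 5000 bp long, against 1.1 kb for the exon 1A region, and took in Gnas exon 1. Both HRCS libraries lay above both swim-up libraries in this run, by 0.195 percentage points between the means (p = 0.33, two-sided exact permutation test). The difference rested mainly on swim-up replicate 2, as swim-up replicate 1 lay close to both HRCS libraries.

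Gnas exon 1 (chr2:174155507-174155935), the first exon of the alpha subunit, is rich in CG and was thinly read. Of its 64 listed sites, 10 had 5 reads in every library, all within the last bases of the exon (chr2:174155820-174155935), which also form an exon of the predicted gene Gm20721. No methylated read was found there in the 168 and 87 calls of swim-up sperm or the 158 and 113 calls of HRCS. These calls share reads, since the sites lie close together, and the deepest site had 20, 13, 19 and 13 reads in the same order. A count of 0 among that many reads allows a level of up to 15%, 23.1%, 15.8% and 23.1%, counting error only. With the sites of any depth included, the exon held 9 methylated calls of 501, 1 of 263, 6 of 423 and 0 of 283 in the same order. The 250 bases before this exon hold 29 CG, of which 3 were read deeply enough, with 16 to 28 calls per library. These 3 sites had 0% in both swim-up libraries, while HRCS had 8.47% and 4.76% (p = 0.33, two-sided exact permutation test). The values rest on 0 methylated calls of 28 and 0 of 16 in swim-up sperm, while HRCS had 2 of 26 and 1 of 20. The 95% Wilson intervals of the pooled calls overlapped. They reached up to 12.1% and 19.4% in the swim-up libraries and down to 2.14% and 0.888% in those of HRCS. These intervals cover counting error only and are no test of a difference. With so few calls and libraries, the values cannot decide whether the fractions differ here. At any depth the 250 bases gave 3 methylated calls of 104, 3 of 99, 4 of 70 and 2 of 114, or 2.88% and 3.03% in swim-up sperm, while HRCS had 5.71% and 1.75%, and the fractions overlapped.

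The third run of low windows lay over Nesp (chr2:174109001-174113800, 20 windows, 171 sites), which in somatic tissue is the paternally methylated end of the locus. In swim-up sperm its level was 2.38% and 2.37%, and HRCS had 2.81% and 2.23%, on either side of the swim-up values. The Nesp promoter shown above (14 sites) had 1.58%, 2.97%, 1.29% and 1.73%, in the order swim-up replicates 1 and 2 and HRCS replicates 1 and 2. Nesp exon 1 (chr2:174109821-174110009, 7 sites) had 1.99%, 2.63%, 0.952% and 5.43%. The coding exon 2 (chr2:174110105-174110978, 63 sites) had 1.45%, 0.991%, 1.58% and 0.514%, with no site above 3.60% in the mean over the libraries. The fractions overlapped in both exons. Nespas exons 2 and 3, which lie antisense in this run, had means between 0.256% and 2.20% in the libraries.

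**Figure D2:**
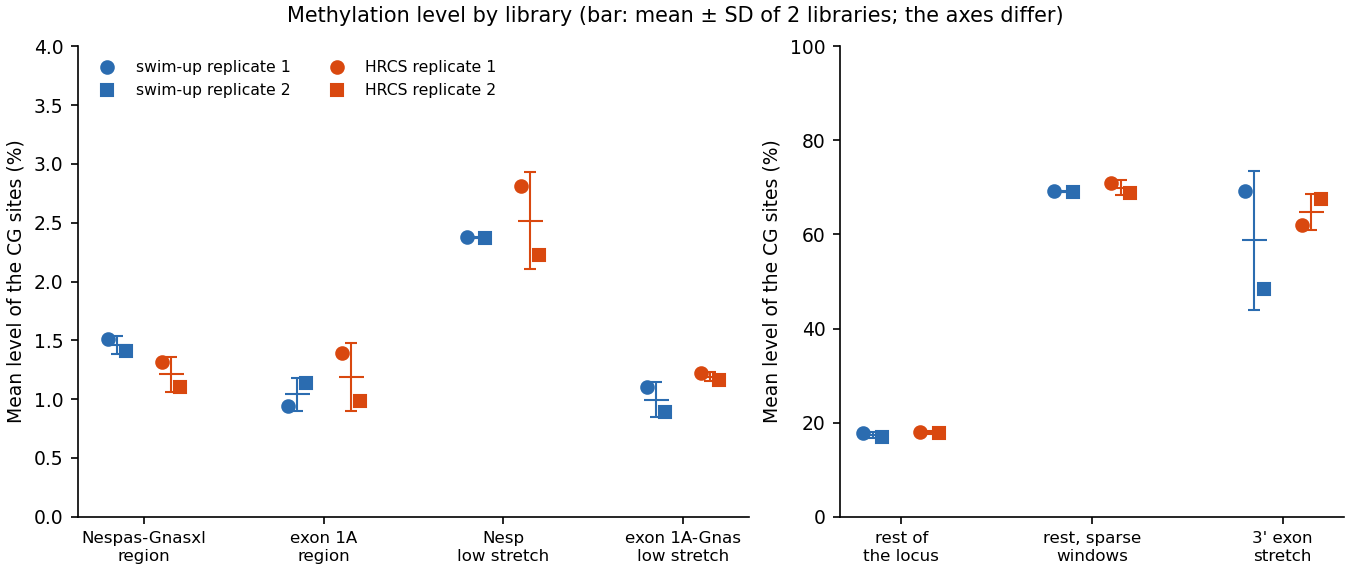
Mean methylation level of the CG sites (vertical axis, %; the panels differ in scale) of 7 stretches of the locus in each library, with swim-up sperm in blue and HRCS in orange, and a bar for the mean ± SD of 2 libraries. The control regions and both neighbouring low stretches lie between 0.889% and 2.81% in every library, whereas the stretch over the 3′ exons lies between 48.4% and 69.2%, with swim-up replicate 2 below the other libraries.

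The rest of the locus had a mean level of 17.8% and 17.0% in swim-up sperm, while HRCS had 18.1% and 17.7%. This mean described few of its sites. Of the 460 sites, 366 had at most 25%, 61 had more than 75%, and 33 lay between. The Nespas-Gnasxl region minus the rest gave -16.3, -15.6, -16.8 and -16.6 percentage points in the 4 libraries, and the exon 1A region minus the rest -16.9, -15.8, -16.7 and -16.7 points. Each of these differences had the same direction in 4 of 4 libraries (p = 0.125, two-sided exact permutation test that swaps region and rest within a library), and 0.125 is the smallest p possible with 4 libraries.

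The size of that gap depended on the CG density of the sites it was set against. In windows that list at most 4 CG sites, the rest of the locus had 69.5% (82 sites, 68.9% to 71.0% over the libraries). In windows that list 5 to 9 sites it had 15.5%, and in windows with at least 10 sites 3.30% (282 sites, 2.48% to 3.83%). Against the dense windows, the Nespas-Gnasxl region differed by -1.97 points and the exon 1A region by -2.19 points, lower in 4 of 4 libraries each (p = 0.125 each, two-sided exact permutation test). These differences rest on the stretch over the 3′ exons described below. Without it, the 271 other sites of dense windows had 1.15%, and the Nespas-Gnasxl region minus these sites was 0.183 points, lower in 1 of 4 libraries (p = 0.25, two-sided exact permutation test). The swim-up libraries gave 0.234 and 0.487 points, and those of HRCS 0.0199 and -0.0106 points. The exon 1A region minus the same 271 sites was -0.0371 points, lower in 2 of 4 libraries (p = 0.75, two-sided exact permutation test). Against the sparse windows the differences were -68.2 and -68.4 points. These splits by density and the removal of the 3′ stretch were chosen after seeing the data. That stretch was picked by its middle level, so leaving it out lowers the dense rest by construction.

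Compared with the windows of the genome that met the same read minimum, low windows were common at the locus. Member sites were 2638319 of the 21342492 CG sites listed on chromosomes 1 to 19, X and Y. As the libraries were enriched with capture probes, these windows do not stand for the whole genome. A window with at least 3 member sites was low (a mean of at most 25%) in 62 of 73 cases at the locus (84.9%) and in 50.9% of 316993 windows of the genome. All 28 windows within the control regions were low. Among windows with 3 to 5 listed CG sites, 8 of 17 were low at the locus and 28.6% in the genome, and among those with 6 to 9 it was 14 of 15 and 59.1%. With 10 to 14 listed sites it was 18 of 19 and 86.9%. With 15 to 19 listed sites, 14 of 14 windows of the locus were low against 97.4% in the genome, and with 20 or more it was 8 of 8 against 99.7%. The shares at the locus rest on neighbouring windows, and their difference from the genome was not tested.

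**Figure D3:**
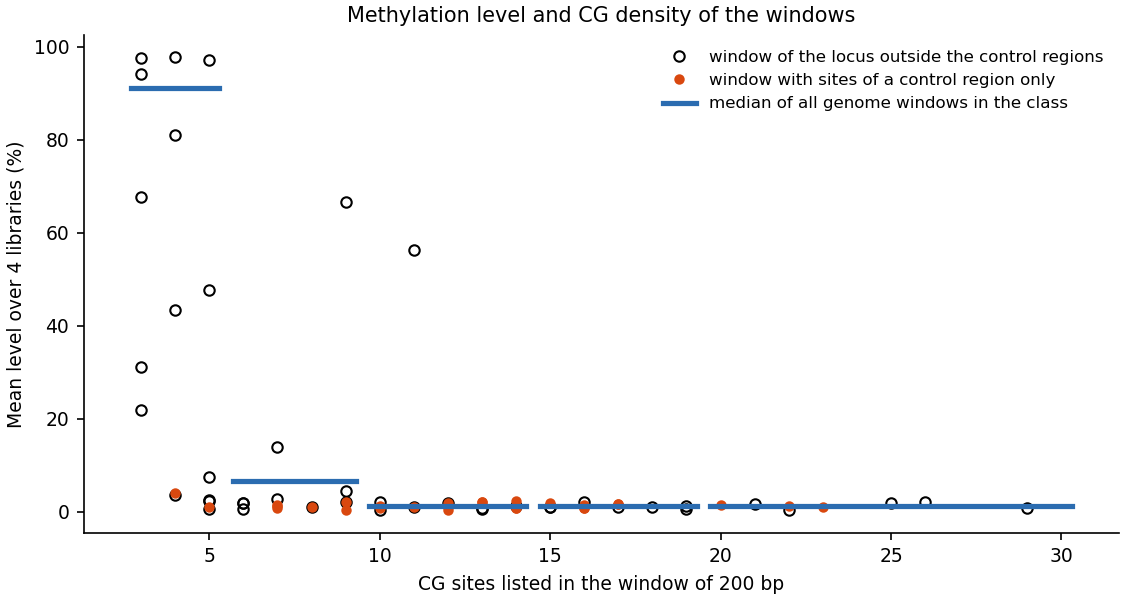
Mean level over the 4 libraries (vertical axis, %) of the 73 windows of the locus against the number of CG sites listed in the window (horizontal axis), with windows of the control regions filled in orange, other windows as open circles and the median of all genome windows of a density class as blue lines. Windows with 15 or more CG sites lie near 0 at the locus and in the genome, and 1 window with 11 sites, over the 3′ exons, stands out at 56.3%.

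Of the 3 highly methylated runs described here, only that between Nesp and the Nespas-Gnasxl region separated low runs. Between the Nespas-Gnasxl and exon 1A regions, highly methylated windows held 1 or 2 member sites each. Windows of middle or low level lay among them. The run upstream of Nesp (chr2:174096001-174100200, 19 sites) had 95.5%, 98.3%, 98.5% and 96.9%, in the order swim-up replicates 1 and 2 and HRCS replicates 1 and 2. Between Nesp and the Nespas-Gnasxl region, 6 sites in chr2:174114801-174115400 had 94.4% to 96.0% over the libraries. Downstream of Gnas exon 1, 11 sites in chr2:174160201-174165800 had 95.7% to 96.9%. The fractions overlapped in all 3 runs.

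The distance from a control region to the first window above 50% (with at least 1 member site) was 4400 bp to the left and 7101 bp to the right of the Nespas-Gnasxl region, and 6800 bp to the left and 5101 bp to the right of the exon 1A region. Between the last low window and that methylated window lay gaps of 2600 to 7000 bp without a member site, so where the change falls within each gap was not measured. The methylated windows held 1 or 2 member sites each, and as the next window with a member site is the same in every library, the distances were equal in all 4.

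The change was resolved at the left edge of the Nesp run, beside Nespas exon 4, which itself had middle levels. This exon (8 sites) had 45.4% and 50.03% in swim-up sperm, while HRCS had 46.5% and 45.4%. Along the printed sequence the sites differed far more than the libraries did. The mean over the libraries was 75.8% at the C of base 5, 66.6% at base 27, 41.7% at base 55 and 44.1% at base 88. It was 9.94% at base 106, 56.7% at bases 125 and 127 each, and 23.2% at base 140. As the exon lies on the minus strand, base 5 is the end nearest to the Nesp run. Within the exon the level thus did not fall towards Nesp, and it was highest at that end. At base 5 the libraries lay between 70.2% and 82.6%, and at base 106 between 0% and 17.8%. The middle level of the exon was thus a mean over sites of unlike levels, although 5 of its 8 sites were themselves between 25% and 75%. Outside the exon, towards Nesp, the level dropped from 45.2% at position 174109010 to 1.93% at 174109127.

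Middle levels were also found between Gnasxl and exon 1A, where the tables list few CG sites. Of the 10 sites in chr2:174136001-174137000, 6 lay between 25% and 75%, and the stretch had 32.1%, 42.7%, 41.7% and 34.0%, in the order swim-up replicates 1 and 2 and HRCS replicates 1 and 2. It rests on 117 to 162 calls per library. The replicates differed more than the fractions, whose means were 0.471 points apart.

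A further stretch, chr2:174137801-174139200, held 4 sites, with 47.9% and 57.9% in swim-up sperm, while HRCS had 48.3% and 45.8%. It rests on 56 to 91 calls per library, and its sites ranged from 21.6% to 91.7%. Only 1 of the 4 sites lay between 25% and 75%, while 2 had at most 25% and 1 had more than 75%.

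The stretch of middle levels with the most sites lay at the 3′ exons that the Nesp, Gnasxl and Gnas transcripts share (chr2:174170601-174171200). All 23 CG sites listed there were members, with 878 to 1032 calls per library. Their level was 69.2% and 48.4% in swim-up sperm, while HRCS had 62.0% and 67.5%. Both HRCS values lay between the swim-up values, so without swim-up replicate 2 HRCS would be the lower fraction. Swim-up replicate 2 was the lowest of the 4 libraries at 17 of the 23 sites and the highest at none, and the other swim-up library was the highest at 11. The swim-up mean ± SD was 58.8% ± 14.8 and that of HRCS 64.7% ± 3.90 (n = 2 each), and the difference of 5.94 points lay within the spread of the swim-up libraries (p = 1, two-sided exact permutation test).

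Exon 8 of the 11 exons of Gnas (chr2:174170884-174171063), a coding exon, lies in this stretch and held 9 of its sites. Its level was 64.2% and 38.5% in swim-up sperm, while HRCS had 53.0% and 62.1%. All 9 sites had a mean above 25%, from 31.7% to 78.9%. One site of exon 9 was read deeply enough, at 100%, 80.0%, 90.0% and 77.8% from 5 to 13 reads. None of the 7 listed sites of exon 10 and none of the 13 of exon 11 had 5 reads in every library. In the window just upstream of the stretch, the 4 sites had 84.4%, 97.5%, 93.4% and 48.6% in the mean over the libraries, the last being nearest to the stretch.

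Between the fractions, no window of the locus passed the test. The levels of the Nespas-Gnasxl region were 1.46% ± 0.0730 in swim-up sperm and 1.21% ± 0.151 in HRCS (n = 2 each). Both HRCS libraries lay below both swim-up libraries, with a difference of -0.249 points (p = 0.33, two-sided exact permutation test). It was -0.143 points without HRCS replicate 2, and with a minimum of 20 reads it was -0.0532 points and the libraries overlapped (p = 1, two-sided exact permutation test). Those of the exon 1A region were 1.04% ± 0.138 and 1.19% ± 0.289, and the libraries overlapped (difference 0.150 points, p = 0.67, two-sided exact permutation test). Without HRCS replicate 1 this difference was -0.0546 points. For the rest of the locus, 17.4% ± 0.614 and 17.9% ± 0.259 gave a difference of 0.506 points (p = 0.67, two-sided exact permutation test), and the libraries overlapped. Without swim-up replicate 1 it was 0.940 points, without swim-up replicate 2 it was 0.0719 points, and without HRCS replicate 1 it was 0.323 points.

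A quasi-likelihood test (edgeR) on methylated and unmethylated calls called 0 of 73 windows of the locus at an adjusted p under 0.05, against 0.00379% of all windows of the genome (12 of 316993). At an unadjusted p under 0.05 stood 1 window of the locus (1.37%) and 4.63% of the genome. limma called 0 windows of the locus, as did a Fisher's exact test of calls pooled within a fraction, and each had 4 at an unadjusted p under 0.05 (5.48%, against 5.68% of the genome for limma and 9.66% for Fisher's exact test). The window with the unadjusted p under 0.05 in edgeR was chr2:174126001-174126200, downstream of the first exon of Gnasxl, with 2.52% and 1.37% in swim-up sperm, while HRCS had 0.156% and 0.313% over 16 sites. Its edgeR quasi-likelihood p was 0.00839 unadjusted, and the adjusted p = 1. When 20 reads per site were asked for, its difference changed from -1.71 to 0.0603 points.

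Among the 73 windows with at least 3 member sites, those with the largest differences had a middle level. The window chr2:174171001-174171200 in the 3′ stretch was 7.13 points higher in HRCS (adjusted p = 1, edgeR), with 78.4% and 49.9% in swim-up sperm, while HRCS had 69.4% and 73.1%. The window chr2:174170601-174170800 was 6.78 points higher, with 69.4% and 57.0% against 67.8% and 72.1%. Between them, chr2:174170801-174171000 (11 sites) was 4.92 points higher, with -7.95 points without swim-up replicate 2 and 17.8 points without swim-up replicate 1. The window chr2:174108801-174109000 in Nespas exon 4 differed by -5.54 points, with 44.1% and 56.7% in swim-up sperm, while HRCS had 46.6% and 43.1%. In these windows the fractions overlapped, and the swim-up replicates differed by more than the fractions did. For the windows of 7.13, 6.78 and -5.54 points, the differences without swim-up replicate 2 were -7.15, 0.585 and 0.789 points, respectively, and without swim-up replicate 1 they were 21.4, 13.0 and -11.9 points.

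Within the control regions, the lowest difference (HRCS minus swim-up) was -3.83 points at chr2:174120201-174120400 (8.25% and 3.55% in swim-up sperm, 2.63% and 1.52% in HRCS, 4 sites, adjusted p = 1 by edgeR). Without swim-up replicate 1 it was -1.48 points and without swim-up replicate 2 it was -6.18 points. The highest was 1.25 points at chr2:174124201-174124400 in the first exon of Gnasxl, where leaving out HRCS replicate 1 gave 2.20 points and leaving out HRCS replicate 2 gave 0.300 points. At 20 reads per site the window chr2:174122601-174122800 of the same region passed it, with 2.88 points against 0.959 at 5 reads. In the exon 1A region the differences of windows with at least 3 member sites lay between -0.205 and 0.509 points, and the fractions overlapped in the windows at both ends of this range. Leaving out a library gave -0.578 to 0.168 points for the lowest (chr2:174153401-174153600, without swim-up replicates 2 and 1) and 0.0908 to 0.928 points for the highest (chr2:174154001-174154200, without HRCS replicates 1 and 2). The window chr2:174154201-174154400 moved from 0.0487 to -3.51 points at 10 reads per site.

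Over all 73 windows, the fractions differed by a median of 0.628 points in absolute size, the swim-up replicates by 0.962 and the HRCS replicates by 0.611. No window differed by more than 10 points between the fractions, whereas 7 did between replicates of swim-up sperm and 2 between those of HRCS. All 6 windows of middle level were among those 7. A mean of 2 libraries varies less than a single library, so the fractions would differ less than replicates even where no effect exists. HRCS was higher in 39 windows and lower in 34.

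**Figure D4:**
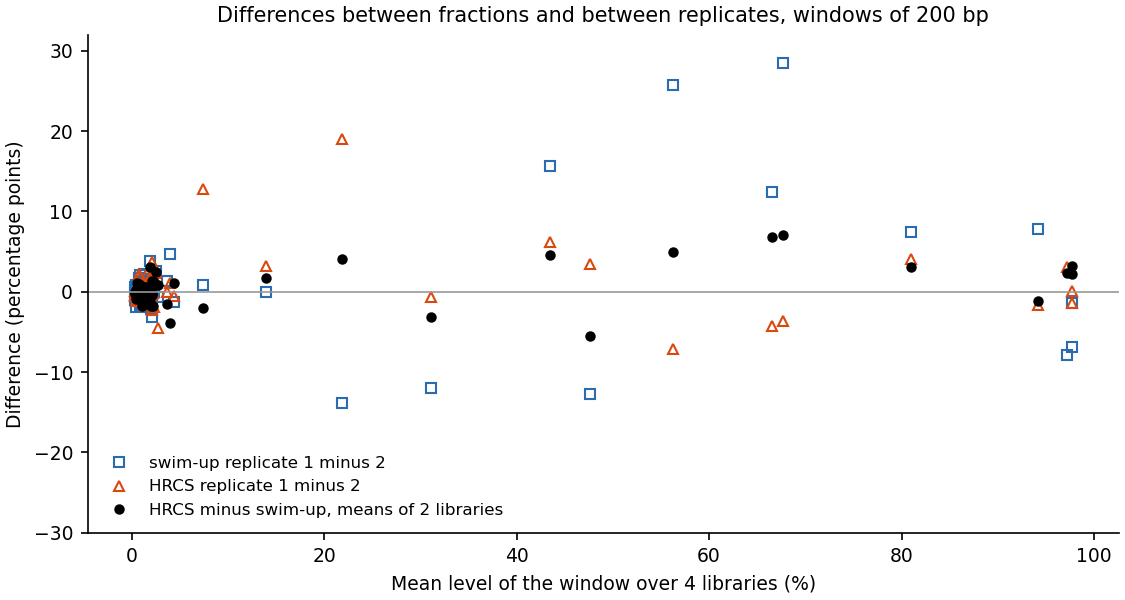
Difference in methylation level (vertical axis, percentage points) of the 73 windows against their mean level over 4 libraries (horizontal axis, %), between HRCS and swim-up sperm (black dots, means of 2 libraries each) and between replicates 1 and 2 of swim-up sperm (blue squares) and of HRCS (orange triangles). Differences between fractions stay within 7.13 points, and replicate differences reach 28.5 points in windows of middle level.

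The hexamer TGCCGC, which the zinc finger protein ZFP57 binds in its methylated form at imprinting control regions, was searched on both strands. It was found in none of the 4 RefSeq promoters of Gnas (250 bases before the start) and in neither Nespas exon shown, and 8.68% of 32817 mouse promoters of the same length hold it. These promoters carry 14, 21, 22 and 29 CG, against a median of 6 over all promoters, and those with 21 and 22 CG overlap over most of their length. Apart from these stretches, the control regions were not searched, so whether they hold the hexamer elsewhere is not known.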

How the data were processed

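Genomic DNA (300 ng) was sheared to about 500 bp, enriched with SureSelect mouse Methyl-Seq probes, tagged after bisulfite treatment, amplified in 5 PCR cycles and sequenced from a single end for 100 cycles. Alignment by the authors was to mm9 with Bmap (version not given in the sources used here). The deposited values are raw counts, per CG site and strand, which were read here as the methylated reads and their total. Removal of duplicate reads and a minimum coverage are not named there.

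Strands were added, and sites with 5 or more reads in every library were kept. Windows of 200 bp, counted from position 1 of a chromosome, needed 3 such sites for tests and counts, and 1 for runs and distances. Window calls were fitted over the genome with edgeR 4.0.16 (library terms, a methylation term and its tested interaction with HRCS, 1 dispersion without trend, Benjamini-Hochberg adjustment). The fit was run on simulated data as a check of the code, which does not show how small a difference would be called at the locus. Alternatives used limma 3.58.1 and Fisher's exact test. Python 3.11.15 (numpy 2.4.6, pandas 2.3.3, scipy 1.17.1, matplotlib 3.10.9) and R 4.3.3 were used. The named windows are, in each part of the locus, the 3 with the largest and the 3 with the smallest difference. The text gives the extremes among them, and some others that lie beside them, had a small unadjusted p or changed with the read minimum. The members and lists were chosen with earlier results of these data known. Mir296, Mir298, Gm27899 and Gm27869, and the Gnas exons with few CG or several matches, could not be placed on mm9 and were not analysed here. Positions are 1-based.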

Additional observations from a re-analysis of the deposited data

How the results depend on the processing

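The direction of the Nespas-Gnasxl difference held under every alternative run, as did that of both gaps to the rest of the locus with 1 exception. Set against dense windows without the 3′ exon stretch, an alternative chosen after seeing the data, the Nespas-Gnasxl gap turned to 0.183 points. The plus-strand rows given below were not run as an alternative, and there HRCS had the higher mean in the Nespas-Gnasxl region. The Nespas-Gnasxl difference was -0.356 to -0.143 points with a library left out and -0.0532 points at 20 reads. The difference of the rest was 0.0719 to 0.940 points with a library left out, 1.03 points at 20 reads and 0.196 points with sites thinned to 5 reads, and it turned to -0.402 points with pooled calls. That of the exon 1A region turned to -0.118 points with sites thinned to 5 reads, and leaving out each library in turn gave -0.0546 to 0.354 points. It was 0.0212 points at 10 reads and 0.0768 points with pooled calls, against 0.150 points in the main setting. No call was made at the locus by edgeR under any setting run, or by limma and Fisher's exact test, which were run at the main setting. Over the genome, edgeR called 12 windows, Fisher's exact test 2397 and limma 0 (18000 with an unadjusted p under 0.05), and edgeR called 2 to 5 with a library left out, 6 and 2 at 10 and 20 reads, 4 in windows of 500 bp and 7 with at least 1 site per window. Fisher's exact test pooled the calls of a fraction and took no account of the spread between its replicates, so its count is not on the same footing. The cause of these changes was not tested. The labels tie the replicate numbers to no shared animal or batch, and deviations of same-numbered libraries had r = -0.00176 across genome windows. With the replicate block the genome count was 11 and the locus count 0. The Nespas-Gnasxl difference of -0.249 points cannot change with such pairing, so this setting is no check of its direction (p = 0.5, exact permutation within pairs, the smallest possible). Depth left 10 of 64 sites of Gnas exon 1 and none of Nespas exon 5.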

Other observations

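The 52 CG sites of the Nespas-Gnasxl region that had fewer than 5 reads in some library held 3 methylated calls of 204, 0 of 149, 2 of 236 and 1 of 149, in the order swim-up replicates 1 and 2 and HRCS replicates 1 and 2 (0% to 1.47%). The plus-strand rows of that region, a small part of its reads, gave 1.03% and 1.54% in swim-up sperm, while HRCS had 2.24% and 1.42%, from 195 to 313 calls. On this strand HRCS was the higher fraction in the mean, opposite to both strands added, and the libraries overlapped. In the exon 1A region 1 of 77 plus-strand calls was methylated in HRCS replicate 1, and none of 16 to 37 in the other libraries. In the rest of the locus, the 826 sites below the minimum were methylated in 31.8% to 39.2% of their 1184 to 1500 calls. This was more than the 16.3% to 18.1% of the pooled calls at the member sites. Of the 826 sites, 336 had no read in any library.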
